A study of Mus musculus with 18 samples.

Results

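The chimeric reads described here carry miR-18a-5p or miR-18b-5p, a pair of near-identical microRNAs, in mouse thymocytes. They were taken from miR-eCLIP, an assay in which ultraviolet light fixes Argonaute proteins to RNA and the bound miRNA and target are joined end to end, so that one read holds both. Members were chosen by name: every deposited read assigned to mmu-miR-18a-5p or mmu-miR-18b-5p. They numbered 5079 of 1190995 chimeric reads, which is 0.426%; 4696 named miR-18a-5p and 383 named miR-18b-5p, out of 374 miRNA names in all. The libraries came from thymocytes of mice aged 6 weeks, irradiated at 254 nm. Wild-type mice were C57BL/6, and knockout mice carried B6.Mirc14tm1.1Ankr, labelled miR181a/b-1-KO, which removes Mir181a-1 and Mir181b-1. Each genotype had 3 libraries from an Ago2 immunoprecipitation (Ago2 IP) and 3 labelled as miR181-5p enrichment (enriched), 12 in all. The 6 input libraries were not analysed here. No label says whether libraries of a group came from separate animals, so p-values measure only the spread between these libraries, which may be technical.

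miRNAs guide Argonaute to messenger RNAs mainly through the seed, the stretch from base 2 to base 8, and binding usually lowers the target's stability or translation. miR-18a is processed from the Mir17-92 transcript on chromosome 14, a cluster known for promoting lymphocyte survival and proliferation, and miR-18b from the related Mir106a-363 cluster on the X chromosome. Both clusters also hold members of the larger miR-17 family, whose seed is close to that of miR-18. miR-181, the family removed or enriched here, is abundant in immature thymocytes and known for tuning T cell receptor signalling.

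The mature sequences are shown because they decide which reads can be told apart. They are RefSeq sequences of GRCm38.p6, written from the 5′ end with the seed in capitals.
miR-18a-5p: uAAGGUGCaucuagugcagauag
miR-18b-5p: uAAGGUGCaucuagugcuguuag
miR-17-5p: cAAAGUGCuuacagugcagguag
miR-20a-5p: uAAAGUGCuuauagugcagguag
Of 23 bases, 21 were identical between miR-18a-5p and miR-18b-5p. Counted from 1 at the 5′ end of miR-18a-5p, the substitutions were A18U and A20U, so the first 17 bases did not separate them. Among the 288 of 374 names with a RefSeq mature sequence, no other had the seed AAGGUGC; the seeds of the remaining names were not read. The seed of miR-17-5p and miR-20a-5p differed from it by G4A.

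The hairpins are shown because a distinct group of miR-18 reads mapped inside them. Capitals mark the stretch from the first to the last base at which a read position fell.
Mir18: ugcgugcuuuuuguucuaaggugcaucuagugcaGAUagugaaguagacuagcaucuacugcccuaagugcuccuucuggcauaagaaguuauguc
Mir18b: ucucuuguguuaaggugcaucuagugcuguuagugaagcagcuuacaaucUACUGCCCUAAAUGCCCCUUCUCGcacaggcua
Mir18, which gives miR-18a, spans 96 bases at chr14:115043851-115043946 on the plus strand. Mir18b spans 83 bases at chrX:52742331-52742413 on the minus strand (both GRCm38.p6).

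The Ago2 IP libraries held between 43983 and 117849 chimeric reads, wild-type enriched libraries between 194628 and 293149, and knockout enriched libraries between 6832 and 19264. miR-181-5p names made up 31.1% ± 1.09 of reads in wild-type Ago2 IP, 1.38% ± 0.0595 in knockout Ago2 IP, 98.98% ± 0.207 in wild-type enriched and 71.9% ± 1.24 in knockout enriched libraries (SD, n = 3 each). The share left for any other miRNA is therefore set in part by miR-181. No read lay in the deleted Mir181a-1 or Mir181b-1 hairpin in any knockout library. All 10 thymocyte marker genes (Cd4, Cd8a, Cd8b1, Cd3e, Lck, Themis, Rag1, Rag2, Ptcra, Dntt) had reads, together 10246 to 13288 reads per 1000000 chimeric reads of the library (RPM) in the Ago2 IP libraries. They were uneven: of 4829 such reads Themis held 2106 and Rag1 1104, while Rag2 held 41 and Ptcra 2. B cell, myeloid and erythroid lists summed to at most 68.2 RPM, and of 4 thymic epithelium genes Foxn1, Krt5 and Krt8 were at 0 in all 12 libraries, while Epcam reached 3.41 RPM in a wild-type enriched library and was at 0 in the other groups.

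In the Ago2 IP, miR-18a-5p was a steady 0.845% of wild-type reads and a larger share of knockout reads. It had 1046, 583 and 354 reads in the 3 wild-type libraries, which was 0.888%, 0.844% and 0.805% of each. In the knockout it had 769, 924 and 743 reads, or 1.27%, 1.37% and 1.43%. Every knockout library lay above every wild-type library. The means were 0.845% ± 0.0414 and 1.35% ± 0.0814 (SD, n = 3 each).

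miR-18b-5p was rarer. It had 65, 41 and 17 reads in wild-type Ago2 IP libraries (0.0552%, 0.0594% and 0.0387%) and 70, 102 and 49 in the knockout (0.115%, 0.151% and 0.0940%). Groups again did not overlap, with means of 0.0511% ± 0.0109 and 0.120% ± 0.0287. Outside the hairpin spans, miR-18b-5p made up 4.33% ± 0.870 of the pair's reads in wild-type libraries and 5.68% ± 0.0898 in knockout ones.

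For shares of reads, the exact two-sided permutation test on log2 percent gave p = 0.1 for both names between genotypes, the smallest value 3 against 3 libraries allow; adjusted over 12 comparisons it was 0.109. Such a separation was common: of 105 names with at least 100 Ago2 IP reads, 84 (80.0%) were higher in every knockout than in every wild-type library. The median log2 ratio over those names was 0.57. On the same scale miR-18a-5p stood at 0.68, rank 40 from the top, and miR-18b-5p at 1.23, rank 5.

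When counts were scaled by TMM, which sets the bulk of names to no change, the difference of miR-18a-5p was small. Its log2 fold change, knockout minus wild type, was 0.12 (SE 0.056), with an edgeR quasi-likelihood adjusted p = 0.160. miR-18b-5p stood at 0.65 (SE 0.21), 1.57-fold, with an edgeR adjusted p = 0.0685. Neither name was called at 0.05, in a comparison where 10 of 117 names (8.55%) were. Scaled by library size alone, the log2 fold changes were 0.67 and 1.20, both called, as were 89 of 117 names (76.1%) in all. The median of all 117 names moved to 0.55. miR-18b-5p was also called with no filter on low counts (edgeR adjusted p = 0.0193), and without knockout Ago2 IP library 3 (edgeR adjusted p = 0.0282). With reads in miRNA spans left out, its value was 0.48 (edgeR adjusted p = 0.0849).

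**Figure D1:**
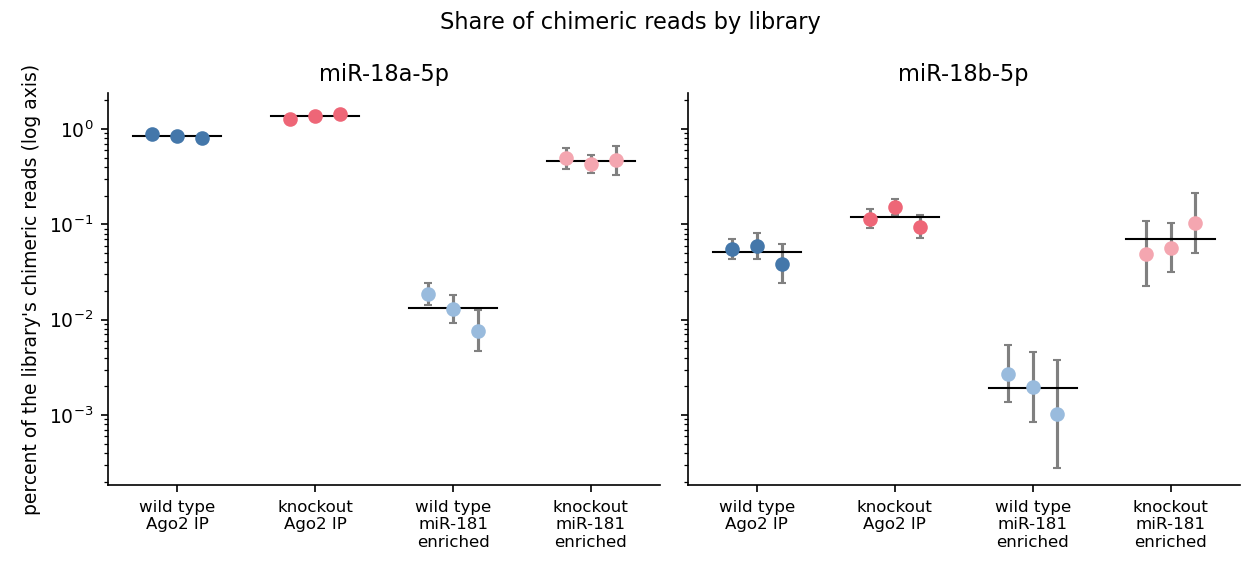
Percent of each library's chimeric reads (log axis) that named miR-18a-5p (left) or miR-18b-5p (right); points are libraries, grey bars are 95% Wilson intervals, which cover counting error only, and black lines are group means. Knockout libraries lie above wild-type libraries in both kinds of IP, and the wild-type enriched libraries, 98.98% miR-181-5p on average, are lowest.

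miR-181 enrichment left few miR-18 reads. Wild-type enriched libraries held 55, 33 and 15 reads of miR-18a-5p and 8, 5 and 2 of miR-18b-5p. Knockout enriched libraries held 60, 82 and 32 of miR-18a-5p and 6, 11 and 7 of miR-18b-5p, from totals that were far smaller. In percent of reads, miR-18a-5p stood at 0.0132% ± 0.00553 in wild-type and at 0.462% ± 0.0338 in knockout enriched libraries (SD, n = 3). miR-18b-5p stood at 0.00191% ± 0.000852 and 0.0696% ± 0.0287.

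Against the Ago2 IP of the same genotype, the log2 share of miR-18a-5p was lower by 6.10 in wild type and by 1.55 in the knockout, with no overlap (exact permutation p = 0.1, adjusted 0.109, in each). For miR-18b-5p the differences were -4.83 in wild type (exact permutation p = 0.1, adjusted 0.109) and -0.83 in the knockout, where the groups overlapped (exact permutation p = 0.2, adjusted 0.2). Relative to the other names by TMM, no tested difference passed. In wild type the log2 fold change of miR-18a-5p, enriched minus Ago2 IP, was -0.12 (SE 0.17, edgeR adjusted p = 0.822). There, 10 of 129 names (7.75%) were called. That of miR-18b-5p was 1.1 (SE 0.49). It is given as a value with no test, since miR-18b-5p passed the low-count filter there only through the Ago2 IP libraries. In the knockout the log2 fold changes were 0.05 (SE 0.11) for miR-18a-5p and 0.67 (SE 0.37) for miR-18b-5p. Their edgeR adjusted p were 0.851 and 0.236, while 21 of 100 names (21.0%) were called. miR-18b-5p was called there only without knockout Ago2 IP library 2 (edgeR adjusted p = 0.0460). By library size alone miR-18a-5p was lower in wild type, at -5.93, where 129 of 129 names were called. miR-18b-5p was at -4.66 there, again a value with no test. In the knockout both names were called lower, at -1.57 and -0.95, where 90 of 100 names were called. Medians over all names were -5.90 in wild type and -1.67 in the knockout.

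Between genotypes within the enriched libraries, values are given as a description, because an earlier result of this contrast was known when the members were chosen. The TMM log2 fold change, knockout minus wild type, was 0.38 (SE 0.18) for miR-18a-5p and 0.30 (SE 0.46) for miR-18b-5p. By library size alone it was 5.07 and 4.92, with a median of 4.75 over all 64 names. In that contrast 3 of 64 names (4.69%) passed the edgeR test.

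**Figure D2:**
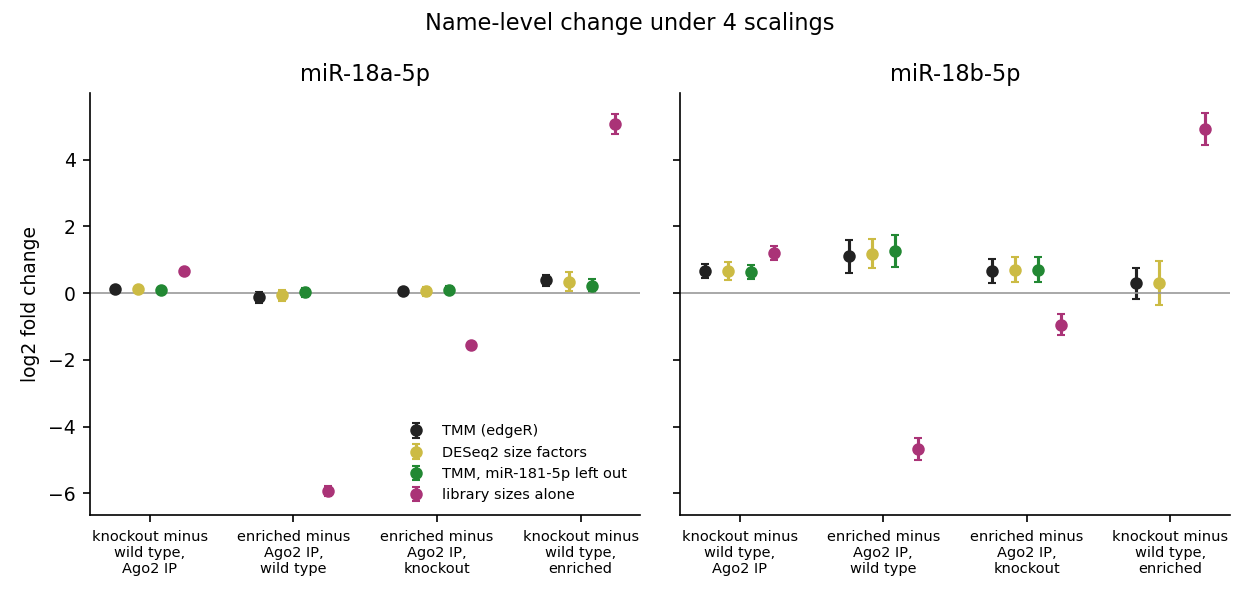
Log2 fold change of miR-18a-5p (left) and miR-18b-5p (right) in the 4 comparisons under 4 ways of scaling the counts; bars are standard errors, and miR-18b-5p did not pass the low-count filter for knockout minus wild type, enriched, once miR-181-5p was left out. The 3 scalings that follow the bulk of names lie close together, between -0.12 and 0.38 for miR-18a-5p, while library sizes alone range from -5.93 to 5.07.

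Most miR-18 reads lay in genes, on the strand of the gene. Of the 5079 reads, 4365 (85.9%) lay in protein-coding gene spans, 302 (5.95%) in Mir18 or Mir18b, 153 (3.01%) in other gene types, 105 (2.07%) in several overlapping genes, 148 (2.91%) in none, and 6 in other miRNA spans. Where the gene's strand was known, 98.4% ± 0.505 of miR-18 reads in the 6 Ago2 IP libraries were on it. Within 2000 nt of the gene's annotated 3′ end lay 20.7% ± 1.33 of them. Other miRNAs, miR-181-5p left out, had 20.3% ± 0.284 there, so the difference was within the spread of miR-18 itself. Exons and UTRs were not looked up, since the annotation used gives gene spans only.

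Reads in the hairpins formed 2 patterns. In Mir18 all 176 miR-18a-5p reads sat at just 2 positions inside the 5p arm, the arm that gives miR-18a-5p itself. They were chr14:115043885, base 19 of miR-18a-5p, with 63 reads, and chr14:115043887, base 21, with 113. In Mir18b the 126 miR-18b-5p reads spread over 21 positions from chrX:52742340 to chrX:52742363. There, 110 reads (87.3%) lay in the 3p arm, the strand opposite the mature miRNA in the hairpin, 16 lay just past it, and none lay in the 5p arm. The position with most, chrX:52742344, held 33. Which end of a fragment the deposited position marks is not given in the sources used here.

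**Figure D3:**
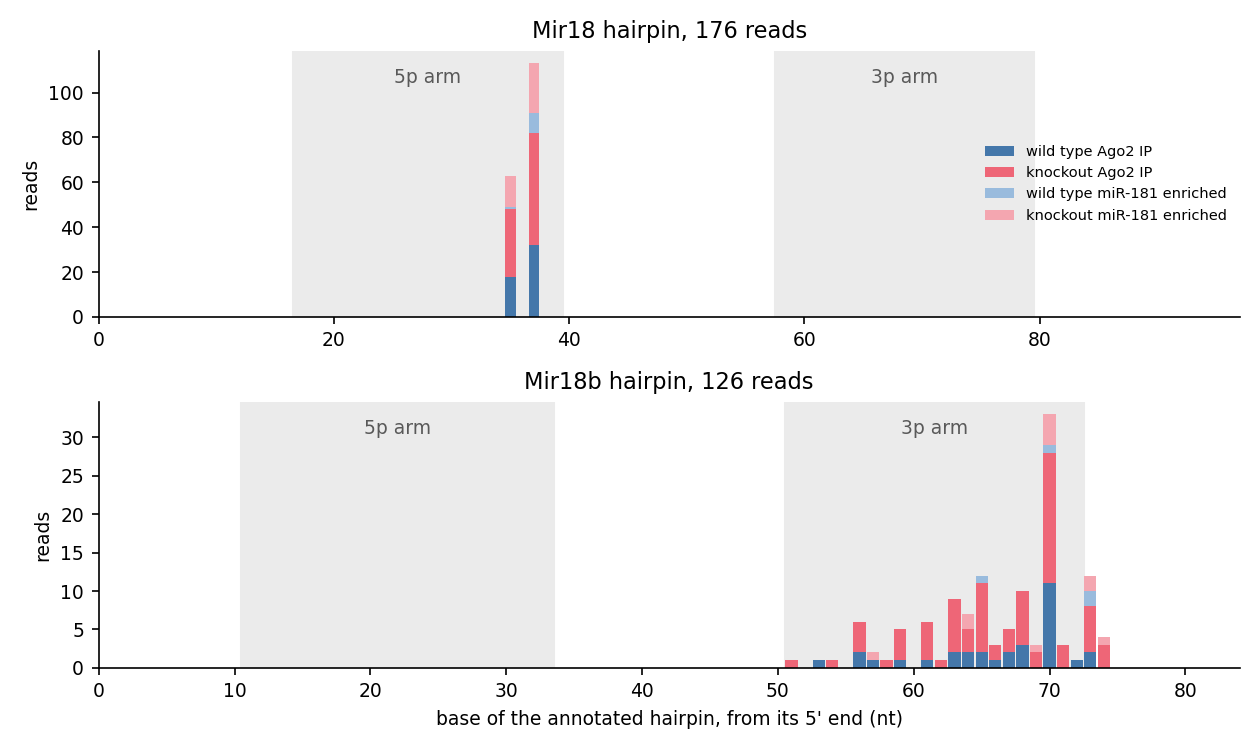
Reads (vertical axes) at each base of the Mir18 and Mir18b hairpins, counted from the hairpin's 5′ end and coloured by library group; grey bands are the annotated 5p and 3p arms. All 176 Mir18 reads stand at 2 bases of the 5p arm, and 110 of 126 Mir18b reads stand in the 3p arm.

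Many of these hairpin reads were identical in position, strand and name within a library. At Mir18, 176 reads collapsed to 22 distinct ones (87.5% repeats). At Mir18b, 126 collapsed to 63 (50%). Outside both spans 4777 reads collapsed to 4704 (1.53%). With 2 positions, a library can hold no more than 2 distinct reads at Mir18, so repeated lines there may be separate molecules or copies; these cannot be told apart in the deposited files.

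Few miRNAs had as many reads in their own hairpin. In the Ago2 IP libraries, 32.3% of miR-18b-5p reads (111 of 344) lay in Mir18b, the highest share among 77 names with at least 100 reads and a RefSeq mature sequence. miR-3068-5p followed with 24.5%, and no further name exceeded 10%. These ranks count every read. With identical reads counted once, the mean share of miR-18b-5p was 18.3% in wild-type and 17.2% in knockout Ago2 IP libraries. The names were not ranked on that count. miR-18a-5p ranked 7 with 2.94% (130 of 4419). The median was 0.0120%, and 37 names had none. Among miRNAs of the related clusters, miR-93-5p had 0.933%, miR-106a-5p 0.557%, miR-20a-5p 0.458%, miR-17-5p 0.0584% and miR-20b-5p 0.0150%, while miR-19b-3p and miR-25-3p had none. The opposite arms of miR-18 were scarce, with 144 reads of miR-18a-3p and 9 of miR-18b-3p in all libraries.

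At Mir18, miR-18a-5p had 19, 21 and 10 reads in wild-type and 23, 41 and 16 in knockout Ago2 IP libraries. That was 2.75% ± 0.895 and 3.19% ± 1.16 of its reads, which overlapped (exact permutation p = 0.6, adjusted 0.675 over 9 comparisons). Wild-type enriched libraries had 7, 1 and 2 such reads, 12.7%, 3.03% and 13.3%. Knockout enriched libraries had 12, 19 and 5, which was 20.0%, 23.2% and 15.6%, each above every Ago2 IP library. The knockout difference, enriched minus Ago2 IP, was 16.4 percentage points (exact permutation p = 0.1, the smallest possible, adjusted 0.450). In wild type it was 6.95 points, with overlap (exact permutation p = 0.2, adjusted 0.6). A larger own-hairpin share in enriched than in Ago2 IP reads, pooled over genotypes, was also seen in related names. It was 3.28% against 0.557% for miR-106a-5p, 2.33% against 0.933% for miR-93-5p and 1.01% against 0.458% for miR-20a-5p. miR-17-5p and miR-20b-5p went the other way, with no such enriched read. Counting identical reads once gives no share to compare here, because 10 of the 12 libraries held the most that 2 positions allow, 2 distinct reads.

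At Mir18b, miR-18b-5p had 16, 11 and 5 reads in wild-type and 25, 48 and 6 in knockout Ago2 IP libraries. In percent of its reads that was 24.6%, 26.8% and 29.4% against 35.7%, 47.1% and 12.2%, so the knockout libraries lay on both sides of the wild-type ones (exact permutation p = 0.7, adjusted 0.700). Library 2 alone held 48 of the 79 knockout reads. Wild-type enriched libraries had 4 of 8, 0 of 5 and 0 of 2 reads there. For 0 of 5 the 95% Wilson interval reaches up to 43.4%. Knockout enriched libraries had 2 of 6, 6 of 11 and 3 of 7, or 33.3%, 54.5% and 42.9%, overlapping the Ago2 IP libraries (exact permutation p = 0.5, adjusted 0.643). Such small counts give wide 95% Wilson intervals, 28.0% to 78.7% for 6 of 11.

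**Figure D4:**
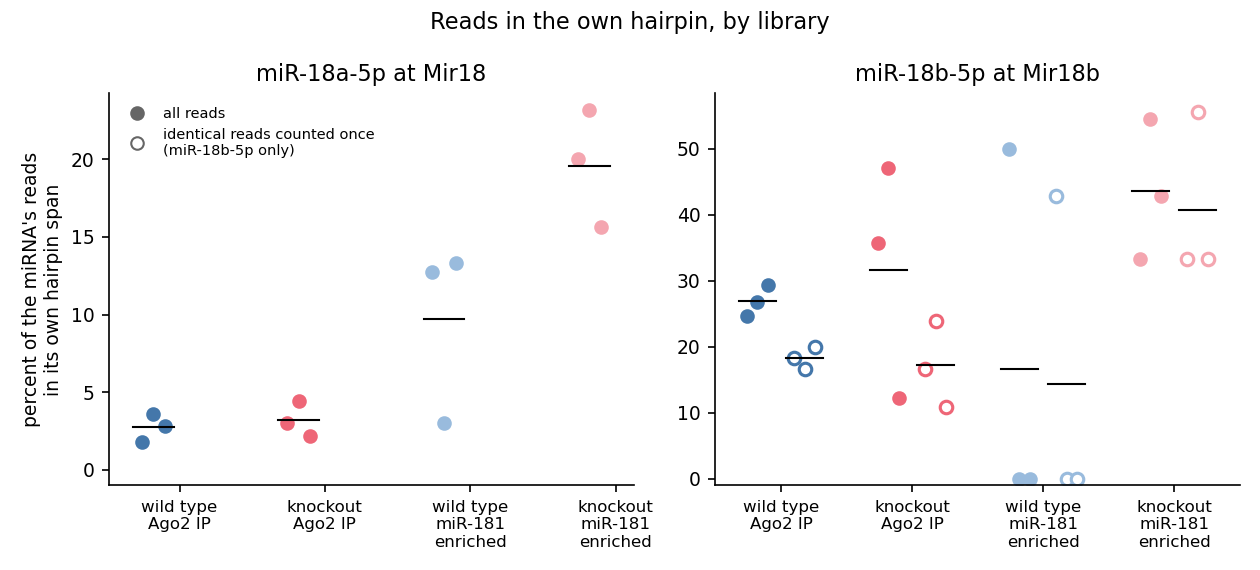
Percent of each miRNA's reads that lay in its own hairpin span, by library; filled points count all reads, open points (miR-18b-5p only) count reads of identical position, strand and name once, and black lines are group means. For miR-18a-5p the knockout enriched libraries, 15.6% to 23.2%, lie above every other library.

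As positions in the genome, the hairpins were tested among clusters of reads of any miRNA joined at 20 nt. In the Ago2 IP the Mir18 cluster rose in the knockout (log2 fold change 0.84, SE 0.32, edgeR adjusted p = 0.0264), as did the Mir18b cluster (1.48, SE 0.36, edgeR adjusted p = 0.000286), where 91 of 251 clusters (36.3%) were called. Neither call held by DESeq2 (adjusted p = 0.212 and 0.174). Leaving out single libraries took away the Mir18 call 4 times: without wild-type library 1, 2 or 3, or without knockout library 2 (log2 values 0.46, 0.97, 0.73 and 0.50). The Mir18b call was lost without wild-type library 2 (1.44), and without knockout library 2 its cluster no longer passed the low-count filter. With identical reads counted once neither hairpin passed the low-count filter. As miRNA-gene pairs, miR-18a-5p at Mir18 was at 0.58 (edgeR adjusted p = 0.145) and miR-18b-5p at Mir18b rose by 1.21 (edgeR adjusted p = 0.0138). That was 1 of 2 miR-18 pairs tested, against 182 of 582 pairs in all (31.3%), of which 24 were higher and 158 lower. The call of miR-18b-5p at Mir18b was lost by DESeq2 (adjusted p = 0.415) and without wild-type library 3 (edgeR adjusted p = 0.151). Without knockout library 2 that pair was filtered out.

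For enriched minus Ago2 IP in wild type, the log2 fold changes of the clusters were -4.72 (SE 0.47) at Mir18 and -5.25 (SE 0.57) at Mir18b, where 676 of 1200 clusters (56.3%) were called. Both passed the low-count filter only through the Ago2 IP libraries, so these are given as values with no test. Between the same libraries the log2 share of miR-18a-5p was lower by 6.10, and that of miR-18b-5p was lower too. The part of miR-18a-5p reads at Mir18 was 9.70% in enriched against 2.75% in Ago2 IP libraries. For miR-18b-5p at Mir18b it was 16.7% against 27.0%. What lies behind these cluster values was not tested. In the knockout, Mir18 was at -0.29 (SE 0.36, edgeR adjusted p = 0.441) and Mir18b was lower, at -1.92 (SE 0.58, edgeR adjusted p = 0.00363), while 144 of 162 clusters (88.9%) were called. Both knockout values moved with the scaling: by library size alone they were 1.09 (edgeR adjusted p = 0.00562) and -0.56 (edgeR adjusted p = 0.331). The Mir18b call was lost without any 1 of the knockout enriched libraries (-1.13 to -0.59), whose Mir18b reads number 2, 6 and 3, and without any 1 of the knockout Ago2 IP libraries the cluster did not pass the filter. Pairs of a name and a gene, scaled on their own table, gave Mir18 the opposite sign. miR-18a-5p at Mir18 was called higher in knockout enriched than in knockout Ago2 IP libraries, by 0.94 (SE 0.37, edgeR adjusted p = 0.0116), where 259 of 273 pairs (94.9%) were called. It stayed called without any 1 library (0.78 to 2.27) and by library size alone (1.08). miR-18b-5p at Mir18b was at -0.72 (SE 0.50, edgeR adjusted p = 0.156). As a description, knockout minus wild type in the enriched libraries was 5.90 at Mir18 and 5.40 at Mir18b; 132 of 805 clusters (16.4%) passed there.

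Outside miRNA spans, miR-18 reads were spread thinly over many genes. The Ago2 IP libraries held 4275 such reads over 2168 genes, and 63.8% of those genes had a single read. At least 10 reads were found at 31 genes, and 19 genes had a read in all 6 libraries. The 25 genes with most reads held 466 (10.9%). Rank 25 had 11 reads and the next gene, Rai1, had 10. These counts are not per length, so their order is not an order of levels. In the enriched libraries no gene of the 25 had more than 3 miR-18 reads.

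Cd3e, which encodes an invariant chain of the T cell receptor complex, had most. It had 8, 7 and 3 reads in wild-type and 11, 8 and 11 in knockout Ago2 IP libraries, all of miR-18a-5p. In RPM that was 67.9 to 101 in wild type against 118 to 211, with no overlap. miR-18 made up 44.4% of the reads at Cd3e that named a miRNA other than miR-181-5p. Of the reads, 46 over all libraries formed 1 site of 75 nt at chr9:44999204-44999278 on the minus strand, the gene's own, 469 nt from the annotated 3′ end. Only 7 reads at that site named another miRNA, 6 of them miR-181a-5p. Cd3e was also the one gene outside miRNA spans whose miR-18 pair passed a low-count filter, for enriched minus Ago2 IP in wild type, and it did so only through the Ago2 IP libraries, so its call there, 1 of 3 miR-18 pairs among 971 called of 2854 (34.0%), supports nothing. It had no miR-18 read among 741279 reads in wild-type enriched libraries, at least 19.6-fold lower in RPM than in wild-type Ago2 IP with a floor of 3 reads over the group. The whole share of miR-18a-5p was lower by 6.10 on the log2 scale between the same libraries, so nothing particular to Cd3e is shown. Knockout enriched libraries had 2 reads there.

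Among the 25, Tcrb, the T cell receptor's beta chain locus, had 4, 5 and 2 wild-type and 5, 3 and 6 knockout reads, 23 of them at chr6:41548182-41548267. Reads at that site also named miR-142a-3p 15 times. Themis, needed for positive selection of thymocytes, had 21 reads at 20 positions. Skap1 and Lcp2, adaptors of T cell receptor signalling, had 17 and 11. Socs1, an inhibitor of cytokine signalling, had 14, all but 1 of them in neighbouring sites at chr16:10784581-10784625 and chr16:10784665-10784693, which begin 773 and 857 nt from the gene's annotated 3′ end. Of the remaining thymocyte markers, Rag1 had 4 reads, Cd4 and Lck 2 each and Cd8b1 1, while Cd8a, Rag2, Ptcra and Dntt had none in the Ago2 IP.

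Satb1, a chromatin organiser of thymocytes, had 5, 3 and 3 reads in wild type against 1, 10 and 2, at 24 different positions. Tox, an HMG-box factor of CD4+ T cell development, had 3, 2 and 1 against 3, 5 and 3. Runx1 had 1, 1 and 0 against 2, 5 and 3, and Foxp1 had 5, 2 and 3 against 0, 2 and 0. Cux1 had 14, Kdm2a, a histone demethylase, 17 and Dr1, a repressor of transcription, 11. In Satb1, Tox, Cux1 and Foxp1 no position held more than 1 read, and reads of other miRNAs were many: miR-18 was 1.25% of non-miR-181 reads at Satb1 and 1.86% at Tox.

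At other genes of the 25, miR-18 made up more of the reads. At Armc8, a subunit of a ubiquitin ligase complex, all 22 reads at chr9:99480538-99480636 named miR-18. Its libraries had 4, 1 and 1 wild-type and 4, 13 and 2 knockout reads, so knockout library 2 held most. Vma21, an assembly factor of the vacuolar proton pump, had 11 reads from miR-18 of 16 from names outside miR-181-5p over the whole gene (68.8%). At Plrg1, a splicing factor, 12 reads sat at 2 positions, chr3:83071190 to chr3:83071192, in 7 libraries, and no other miRNA was read there; it was singled out after its values were seen. Edem1, which acts in the disposal of misfolded glycoproteins, had 16 reads at chr6:108837469-108837488. Zfp367, a zinc-finger factor, had 13 at chr13:64135181-64135250 and Pan3, a subunit of a deadenylase, 12 at chr5:147521857-147521886. Camk4, Tm9sf2, Gigyf1, Znrf1, Rab5c and the ribosomal RNA entry Rn18s-rs5 complete the 25, with 11 to 19 reads each. Of all 4010 sites outside miRNA spans, 3656 held 1 read, 39 held at least 5 and 10 at least 10.

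**Figure D5:**
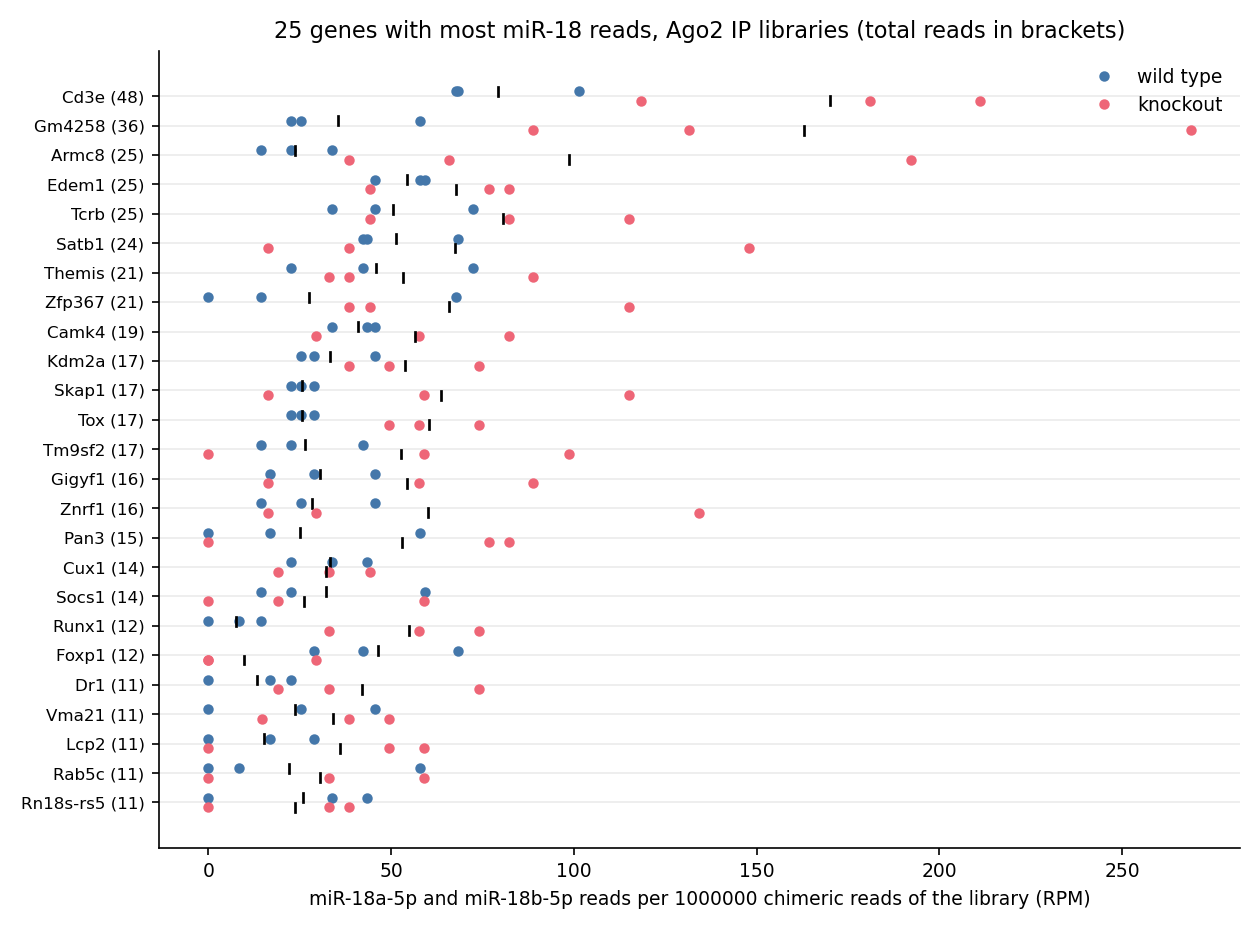
RPM of miR-18a-5p and miR-18b-5p together in each Ago2 IP library at the 25 genes with most such reads; blue points are wild type, red points knockout, black ticks the means, and brackets give total reads. Cd3e and Gm4258 have the most, and at most genes the genotypes overlap.

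By genotype, RPM was compared at the 31 genes with at least 10 miR-18 reads. In 5 of them it was higher in every knockout than in every wild-type Ago2 IP library, and in none lower. The 5 were Armc8, Cd3e, Gm4258, Runx1 and Tox. They make up 16.1%. Among all 4857 pairs of a gene and a miRNA outside miR-181-5p with as many reads, 824 (17.0%) were higher and 95 (1.96%) lower in RPM. The outcome depended on the scale. As percent of each library's miR-18 reads, Armc8, Cd3e and Gm4258 overlapped between genotypes, while Runx1 and Tox did not. On that scale Foxp1 was lower in every knockout library, at 0% to 0.195% against 0.321% to 0.809%. No share over all pairs was counted on that scale, so how common such a separation is there is not known. No change particular to Runx1, Tox or Foxp1 is shown. Gm4258 stood at 35.4 ± 19.6 RPM in wild type and 163 ± 94.0 in the knockout (SD, n = 3). Its annotated span, chr1:137898464-137963020, ends upstream of the deleted Mir181a-1 hairpin at chr1:137966455-137966541. Other miRNAs outside miR-181-5p were higher there too, at 2062 against 6289 RPM on average, with no overlap, so the 4.61-fold difference of miR-18 stood beside a 3.05-fold one of the rest. At Cd3e the ratio was 2.15 for miR-18, while the other names had 128 and 142 RPM. Over the 25 genes, the median ratio of knockout to wild-type means was 1.78 for miR-18 and 1.36 for the other names. The 25 were picked by their miR-18 reads in these same libraries. The whole share of miR-18a-5p outside the hairpin spans was itself 1.59-fold higher in the knockout, so no gain particular to these genes is shown. No miR-18 pair outside the hairpins passed the filter for the genotype test in the Ago2 IP, so none of these differences has a test.

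A list of 17 gene symbols known as reported miR-18 targets had few reads. Of these, 10 had at least 1 read in the Ago2 IP, 37 in all. Cdc42, a small GTPase, had 7, Dicer1, which processes miRNA precursors, and Nr3c1, the glucocorticoid receptor, had 6 each, and Tnfaip3 and Irf2 had 4. Smad2 and Hif1a had 2, and Smad4, Rora, Esr1, Thbs1, Atm and Ccn2 had none. The symbol Ctgf had no entry in the annotation used, so no read could be given under that symbol. Ccn2 had no Ago2 IP read of any miRNA and Thbs1 had 2, so their lack of miR-18 reads says nothing about miR-18. At these counts absence of reads cannot be told from low depth.

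Across the 12 libraries, the names whose percent of reads followed miR-18a-5p most closely were miR-106a-5p, miR-20a-5p, miR-93-5p, miR-17-5p and miR-20b-5p. Likeness was the root mean square difference of centred log2 shares, which was 0.13, 0.17, 0.18, 0.18 and 0.21 among 93 names. Shares of one library sum to a whole, and all of these names vary with miR-181-5p in the same libraries. Their levels were higher than that of miR-18a-5p: of Ago2 IP reads, miR-17-5p took 2.79% ± 0.134 in wild type against 3.98% ± 0.160, and miR-20a-5p took 3.15% ± 0.0610 and 4.29% ± 0.158 (SD, n = 3).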

How the data were processed

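Chimeric reads of 12 miR-eCLIP libraries were analysed. The deposited files list, per the file contents, 1 line per chimeric read with a genome position of 1 nt, a strand, a miRNA name and a count of 1. The authors' read processing is known only from the submitters' processing notes, which name Bowtie2 2.4.5, SAMtools 1.11, STAR 2.7.10, UMI-tools 1.1.1 and bedtools 2.30.0 and the builds mm10 and GRCm38.p6, without roles or order. Positions were assigned to gene spans of RefSeq GRCm38.p6, without use of strand. A read in a miRNA span was given to that miRNA. Otherwise it went to a single protein-coding span, whatever other gene types overlapped, or else to a single span of another type. Reads in several protein-coding genes, or in several genes with none protein-coding, were left without a gene. Of 374 miRNA names, 288 had a RefSeq mature sequence, both members among them.

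Counts per miRNA name, per miRNA-gene pair and per cluster of reads joined at 20 nt were tested over all miRNAs with edgeR 4.0.16 (TMM scaling, minimum count 10, quasi-likelihood test, Benjamini-Hochberg adjustment, adjusted p at most 0.05) in R 4.3.3, with the 6 libraries of each comparison. DESeq2 1.42.0 was an alternative. For shares per library an exact permutation test (two-sided) was used, adjusted within each family; 3 against 3 libraries cannot go below p = 0.1. Intervals (95%, Wilson) and floors (3 reads) cover counting error only. The counting tests were tested on simulated data.

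Replicate numbers were not used to pair the libraries. Same-numbered libraries did not deviate together in every pair, which cannot settle whether they were paired, and the labels do not say. Knockout enriched libraries 2 and 3 agreed over clusters (chi-square p = 0.154) but not over miRNAs (chi-square p = 0.0197), and were kept as separate samples; counting them as 1 was an alternative chosen after seeing the data. The genes named are the 25 with most miR-18 reads in the Ago2 IP, those with at least 3 reads in each library of a group, the reported targets and the marker genes; exceptions are stated. Members and lists were chosen with earlier results of these data known.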

Additional observations from a re-analysis of the deposited data

How the results depend on the processing

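Most results kept their direction and their side of the threshold. Scaling mattered most. By library sizes alone the log2 fold change of miR-18a-5p was 0.67 (knockout minus wild type, Ago2 IP), -5.93 and -1.57 (enriched minus Ago2 IP, wild type and knockout) and 5.07 (knockout minus wild type, enriched). For miR-18b-5p it was 1.2, -4.66, -0.95 and 4.92 in that order. For enriched minus Ago2 IP in the knockout, the Mir18 cluster was then at 1.09 and the Mir18b cluster at -0.56. With miR-181-5p left out of the denominator, the log2 share of miR-18a-5p changed by 0.26 (enriched minus Ago2 IP, knockout) and 0.42 (knockout minus wild type, enriched; 0.26 outside the hairpin spans). That of miR-18b-5p changed by 1.27 in wild type and 0.98 in the knockout (enriched minus Ago2 IP; 1.39 and 0.72 outside the spans) and by 0.42 between genotypes in enriched libraries (-0.088 outside the spans). With miR-181-5p left out of the table, miR-18a-5p was at 0.026 for enriched minus Ago2 IP in wild type.

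With identical reads counted once, the genotype difference in hairpin percent was -1.17 points (miR-18b-5p) in the Ago2 IP and 3.40 for both names in enriched libraries. For miR-18a-5p it was -0.12 points in the Ago2 IP and -0.11 in enriched libraries, which says nothing about the hairpin share, since 10 of 12 libraries held the most distinct reads that 2 positions allow. In enriched libraries the log2 share of miR-18a-5p differed by 4.65. For enriched minus Ago2 IP in the knockout, miR-18a-5p was then at -0.11; it was at -0.20 with no filter and at -0.21 with reads in miRNA spans left out. That last setting put miR-18b-5p at -0.20 for knockout minus wild type, enriched. With no filter, miR-18b-5p was called for knockout minus wild type in the Ago2 IP (0.62), the Mir18 cluster was not (0.77), and in the other contrasts the Mir18 cluster was at 0.044 (enriched minus Ago2 IP, knockout) and 4.76 (knockout minus wild type, enriched). By DESeq2 the Mir18 and Mir18b clusters were at 0.75 and 1.41 (knockout minus wild type, Ago2 IP), neither called, Mir18 was at 0.064 (enriched minus Ago2 IP, knockout), and miR-18b-5p at Mir18b at 0.77. With knockout enriched libraries 2 and 3 as 1 sample, a choice made after seeing the data, those values were 0.82 (Mir18), -0.85 (Mir18b, no longer called) and 0.68 (miR-18b-5p at Mir18b).

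The replicate block called miR-18b-5p for knockout minus wild type in the Ago2 IP (0.67, edgeR adjusted p = 0.0181). The numbers mark no shared animal or batch in the labels.

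Leaving out 1 library at a time gave these ranges for results that changed side or sign. The genotype difference in hairpin percent, Ago2 IP, ran from -0.18 to 0.97 points for miR-18a-5p and from -2.97 to 14.4 for miR-18b-5p. For miR-18a-5p, enriched minus Ago2 IP in wild type ran from -0.35 to 0.048. miR-18b-5p ran from 0.45 to 0.79 (knockout minus wild type, Ago2 IP) and from 0.47 to 0.91 (enriched minus Ago2 IP, knockout). The Mir18 cluster ran from 0.46 to 0.97 and from -1.38 to 0.78 in those comparisons. The Mir18b cluster ran from 1.29 to 1.81 over 5 of the 6 libraries left out and from -1.13 to -0.59 over 3 of 6; in the rest it did not pass the filter. miR-18b-5p at Mir18b ran from 0.21 to 0.71 for enriched minus Ago2 IP in the knockout, over 3 of 6, against -0.72 with all libraries. The causes of these changes were not tested.

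Counts of calls over all features moved as well. By library sizes alone, 89, 129, 90 and 64 miRNA names were called in the 4 comparisons, against 10, 10, 21 and 3. With no filter, 518 clusters and 1641 pairs were called for knockout minus wild type in the Ago2 IP, against 91 and 182. No miR-18 pair was called with identical reads counted once in any comparison. For enriched minus Ago2 IP in wild type, 9 were called with no filter, against 3. Over all pairs, 3010 of 11032 (27.3%) were called with no filter, against 971 of 2854 (34.0%). The 3 had passed the low-count filter only through the Ago2 IP libraries, so their calls support nothing. Of the 25 genes, 23 stayed when ranked by mean RPM and 24 with identical reads counted once. Depth limits the enriched values most, since their libraries hold 2 to 82 reads of either name.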
